A study of Mus musculus with 18 samples.

Results

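Gatad2a, Smarcc1, Atf2, Zbtb37, Rbfox2 and Mki67 encode nuclear proteins that act on chromatin, transcription, splicing or cell division. They were taken by symbol from a table of 51 named genes that the authors deposited for mouse brain, and they are 6 of the 12439 features of the arrays. Each gene is measured by 1 feature, numbered 13009 for Gatad2a, 21619 for Smarcc1, 26317 for Atf2, 16457 for Zbtb37, 19922 for Rbfox2 and 15442 for Mki67. The sources used here do not say how the authors chose the 51 genes. Their table lists a fold for each mouse only above 2 or below 0.5, per the file headers, so a difference of these genes from control on the same arrays is not independent evidence of a change.

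The study, by its title, addressed health effects of plant protection products used on potatoes, here in brain. Male BALB/cOlaHsd mice, 8 weeks old on day 0, ate standard chow and were gavaged daily over 20 days. ADI mice received a mixture of 9 pesticides at the acceptable daily intake, PC mice 30 mg per day of flour from conventionally grown potatoes and PO mice the same amount from organically grown ones. PCS and POS mice received flour from conventional and organic potatoes kept under storage conditions, and Ctr mice received water. The labels name 3 mice per group, each a separate animal with 1 one-colour array, and 15 of the 18 columns were used. ADI, PC and Ctr thus had 3 arrays each, while PO, PCS and POS had 2.

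PO replicate 2 was left out, since each of its 12439 values is the average of those in the columns PO replicate 3 and PCS replicate 1. Also left out were PCS replicate 3 and POS replicate 3, whose values ran against the 15 columns used (r from -0.17 to -0.14 over features). POS replicate 3 is also labelled day 27. Among the 15 arrays, POS replicate 2 stood apart, at r = 0.83 to 0.85 with the others where those correlated at r = 0.97 to 0.98. The 75th percentile of intensity was 1531 to 1995.5 on the 4 PCS and POS arrays and 838.5 to 1079 on the other 11, which is why intensities were scaled to a common 75th percentile, and storage and array brightness cannot be told apart. None of 27 marker genes listed for neurons, glia, vessels, blood or choroid plexus is paired with a feature, so the labelled tissue was not checked against its markers. In pieces of whole brain, a change in the number of cells of a type and a change in RNA per cell cannot be told apart.

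Gatad2a is a subunit of NuRD, a complex that joins histone deacetylation to nucleosome remodelling and mostly represses transcription. Smarcc1 is a core scaffold subunit of the BAF (SWI/SNF) complex, which moves or evicts nucleosomes and whose subunit composition shifts as neurons mature. Atf2 is a basic leucine zipper factor of the ATF/CREB family, activated by stress kinases, that binds cAMP response elements alone or with Jun. Zbtb37 carries a BTB domain and zinc fingers, the layout of many transcriptional repressors. Rbfox2 binds pre-mRNA beside alternative exons and sets their inclusion in neurons and muscle, and Mki67 coats mitotic chromosomes and marks cycling cells, which are rare in the adult brain. The authors' table files Gatad2a, Smarcc1, Atf2 and Mki67 under carcinogenesis, Zbtb37 under the immune system and Rbfox2 under the reproductive system.

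The proximal promoters of the 5 genes with an entry are shown so that the letters the genes share can be read beside their levels. They run from 250 bases before to 50 after a start site and come from RefSeq (GRCm38.p6), 5′ to 3′ on the gene's strand. Capitals mark GC boxes (GGGCGG) and CCAAT boxes (CCAAT) on either strand, and overlapping matches were counted.
Gatad2a, chr8:69996335-69996634, minus strand: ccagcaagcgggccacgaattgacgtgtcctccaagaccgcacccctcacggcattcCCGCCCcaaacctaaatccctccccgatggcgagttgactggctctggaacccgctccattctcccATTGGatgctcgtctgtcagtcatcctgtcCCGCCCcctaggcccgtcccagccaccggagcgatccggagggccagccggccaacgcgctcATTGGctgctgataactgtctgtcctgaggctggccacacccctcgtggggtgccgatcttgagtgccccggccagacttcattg
Smarcc1, chr9:110131774-110132073, plus strand: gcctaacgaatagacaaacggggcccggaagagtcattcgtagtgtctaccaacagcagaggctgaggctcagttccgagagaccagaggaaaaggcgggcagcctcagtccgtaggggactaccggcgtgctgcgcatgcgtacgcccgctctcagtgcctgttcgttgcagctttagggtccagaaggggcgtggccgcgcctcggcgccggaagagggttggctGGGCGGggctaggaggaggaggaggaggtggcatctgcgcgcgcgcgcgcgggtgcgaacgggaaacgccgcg
Atf2, chr2:73892590-73892889, minus strand: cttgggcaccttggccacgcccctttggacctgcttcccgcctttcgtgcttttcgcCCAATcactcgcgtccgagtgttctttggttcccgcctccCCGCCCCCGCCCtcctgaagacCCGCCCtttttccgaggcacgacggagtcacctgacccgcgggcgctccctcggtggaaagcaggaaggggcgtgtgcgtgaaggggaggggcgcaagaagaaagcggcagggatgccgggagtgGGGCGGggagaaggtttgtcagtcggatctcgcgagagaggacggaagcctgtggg
Zbtb37, chr1:161034800-161035099, minus strand: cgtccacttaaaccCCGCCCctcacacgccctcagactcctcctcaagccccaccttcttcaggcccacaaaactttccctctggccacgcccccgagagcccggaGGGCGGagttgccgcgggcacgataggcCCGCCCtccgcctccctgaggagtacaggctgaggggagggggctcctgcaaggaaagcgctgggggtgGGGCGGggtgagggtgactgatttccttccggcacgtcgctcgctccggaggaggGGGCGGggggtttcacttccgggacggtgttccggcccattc
Mki67, chr7:135716330-135716629, minus strand: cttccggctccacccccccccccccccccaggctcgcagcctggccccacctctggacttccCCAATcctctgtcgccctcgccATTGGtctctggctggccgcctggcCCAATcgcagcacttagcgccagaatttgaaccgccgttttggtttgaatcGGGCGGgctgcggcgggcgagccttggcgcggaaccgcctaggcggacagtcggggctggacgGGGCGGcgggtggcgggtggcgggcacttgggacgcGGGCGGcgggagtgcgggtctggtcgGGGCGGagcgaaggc

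The Gatad2a stretch holds 2 GC boxes and 2 CCAAT boxes, and the Smarcc1 stretch holds 1 GC box. A second Gatad2a start, at chr8:69974334-69974633 and not printed, holds 4 GC boxes and 0 CCAAT boxes. The Atf2 stretch holds 4 GC boxes and 1 CCAAT box, and the Zbtb37 stretch holds 5 GC boxes. The Mki67 stretch holds 4 GC boxes, 3 CCAAT boxes and 2 matches of the cell cycle homology region (TTTGAA), a motif of genes expressed in dividing cells. Promoters were on hand for 5 of the 6 genes, 6 in number with the second Gatad2a start, and all 6 held a GC box, against 35.7% of 32851 promoters of this length. Neither the cAMP response element (TGACGTCA, in 1.79% of all promoters) nor the TATA box (TATAAA, in 13.6%) has its letters in these 6 windows. The share with a CCAAT box over all promoters is 37.4% and that with TTTGAA 17.9%. The GC content was 64% at the first and 69.7% at the second Gatad2a start, 66% for Smarcc1 and Atf2, 68.3% for Zbtb37 and 72.7% for Mki67, with a median of 52.7% over all promoters. These matches describe letters, and no binding was measured.

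Of the chromatin genes, the NuRD subunit Gatad2a had scaled intensities of 1897 and 1619 in PCS mice and of 1514 and 3534 in POS mice, in replicate order. In the remaining groups it had 1088, 1513 and 996 in ADI mice, 929, 1351 and 988 in PC mice, 853 and 1045 in PO mice and 851, 1407 and 1067 in Ctr mice. All 4 PCS and POS arrays lay above the other 11, although POS replicate 1 lay only 1.00 times as high as ADI replicate 2, so the groups touch. The BAF subunit Smarcc1 had 1035 and 799 in PCS mice and 818 and 1624 in POS mice. It had 557, 732 and 499 in ADI mice, 576, 620.3 and 537 in PC mice, 546 and 546 in PO mice and 515, 751 and 553 in Ctr mice. Its lowest stored-potato array, PCS replicate 2, was 1.06 times the highest of the others, Ctr replicate 2. For both genes POS replicate 2 was the highest array of the 15.

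Of the transcription factors, Atf2 had scaled intensities of 881 and 651 in PCS mice and 633 and 1048 in POS mice. It had 444, 550.2 and 465 in ADI mice, 413, 572 and 458 in PC mice, 386 and 469 in PO mice and 433, 505 and 501 in Ctr mice. The lowest stored-potato array was 1.11 times the highest other array, so the groups were apart by a little more than for the chromatin genes. Zbtb37 had scaled intensities of 944 and 775 in PCS mice and 759 and 1101 in POS mice. It had 394, 633 and 581 in ADI mice, 501, 557 and 535 in PC mice, 471 and 631 in PO mice and 424, 593 and 529.6 in Ctr mice. Its gap of 1.20 times was the widest of the 6 genes, and its arrays within ADI spread more than those within PC.

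The splicing regulator Rbfox2 had scaled intensities of 2233 and 1513 in PCS mice and 1805 and 3455 in POS mice. It had 1101, 1498 and 917 in ADI mice, 1119, 1324 and 1128 in PC mice, 1109 and 1105 in PO mice and 1094, 1405 and 1041 in Ctr mice. As for Gatad2a, the groups nearly touched, with PCS replicate 2 at 1.01 times ADI replicate 2. The proliferation marker Mki67 had scaled intensities of 985 and 761 in PCS mice and 775 and 1181 in POS mice. It had 516, 714 and 571 in ADI mice, 571, 611 and 601 in PC mice, 531 and 494 in PO mice and 529, 560.2 and 632 in Ctr mice. Its lowest stored-potato array was 1.07 times the highest of the others.

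**Figure D1:**
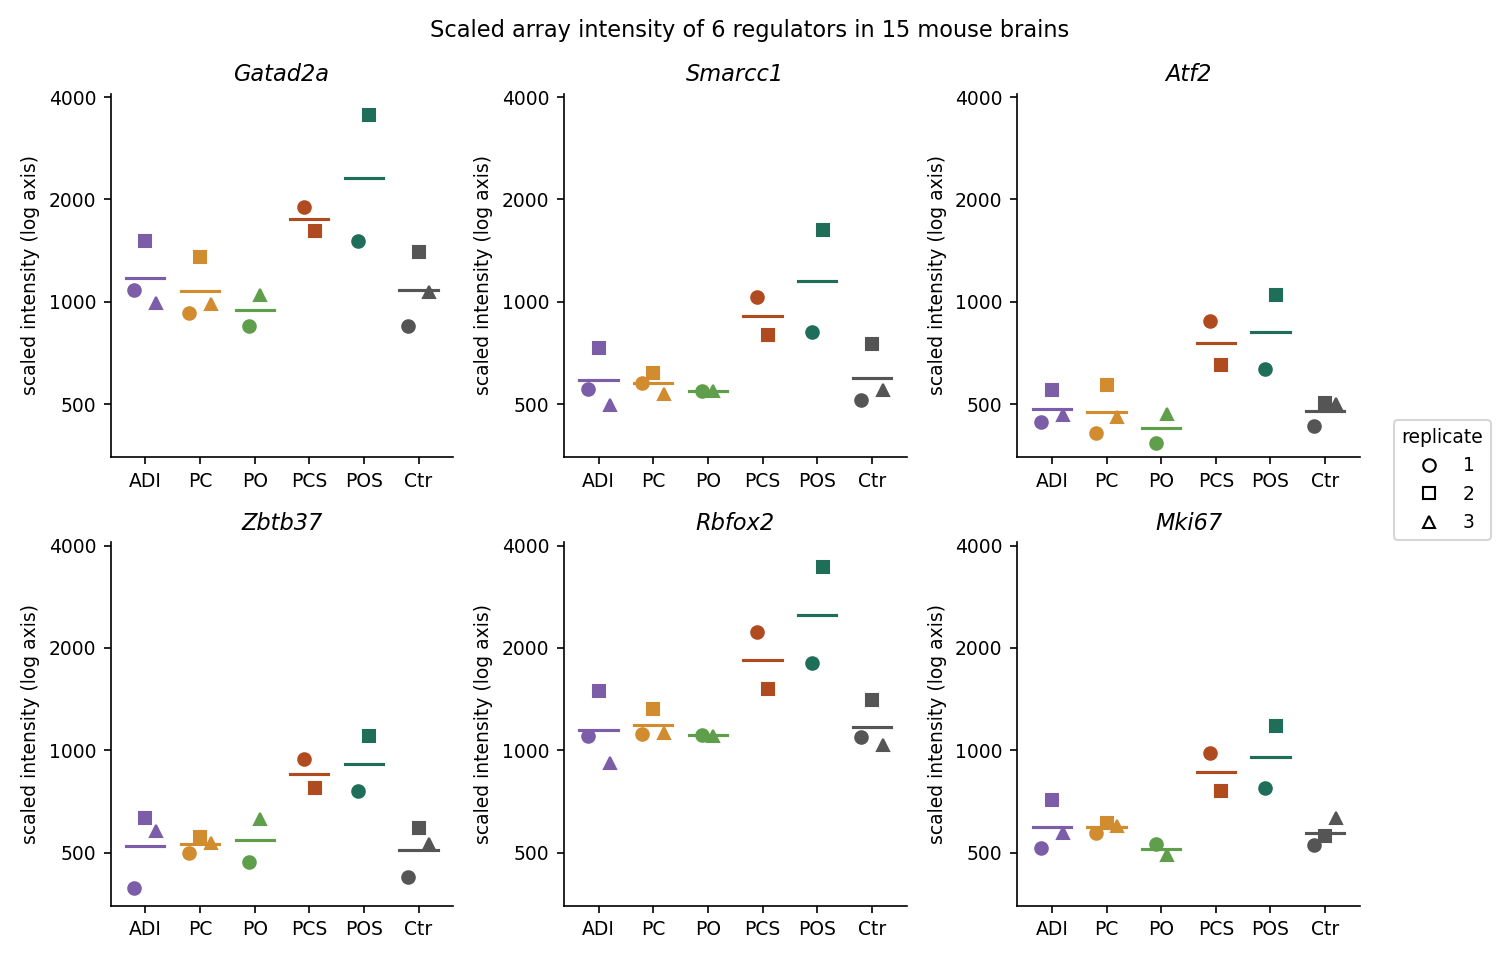
Scaled intensity (log axis) of the 6 genes on each of the 15 arrays, with groups in the order ADI, PC, PO, PCS, POS, Ctr, marker shapes for the replicate number and a bar at the geometric mean of each group. In every panel the PCS and POS points lie above the points of the other 4 groups, and POS replicate 2 is the highest point, at 3534 for Gatad2a.

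In all 6 genes POS had the highest group mean, PCS came next and ADI, PC, PO and Ctr followed closely together. POS came first through POS replicate 2, since POS replicate 1 lay below the PCS mean in each gene, and the arrays of POS and PCS overlapped. ADI, PC and PO each overlapped with Ctr in every gene. The arrays of PCS and POS lay above all other 11 arrays in 6 of the 6 genes, where 1.87% of all features and 18 of the other 45 named genes did so. Without POS replicate 2 it was again 6 of the 6 genes and 18 of the 45, with 2.32% of all features. Because the named genes come from a table the authors made from these mice, these counts describe the genes and do not test them. The other 11 arrays spread over 1.45 times (Mki67) to 1.78 times (Gatad2a) between their highest and lowest value, which is more than the gap to the stored-potato arrays in each gene.

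The comparison of PCS with Ctr addressed flour from stored conventional potatoes. Group means were 1758 ± 197 (SD, n = 2) in PCS and 1108 ± 280.0 (SD, n = 3) in Ctr for Gatad2a, and 917 ± 167 and 606 ± 127 for Smarcc1. For Atf2 they were 766 ± 163 in PCS and 479 ± 40.5 in Ctr. The log2 change was 0.69 ± 0.34 (SE) for Gatad2a, 0.60 ± 0.28 for Smarcc1, 0.66 ± 0.24 for Atf2, 0.74 ± 0.25 for Zbtb37, 0.65 ± 0.29 for Rbfox2 and 0.60 ± 0.21 for Mki67, which are differences of 1.51-fold to 1.68-fold. None passed after adjustment over all features (limma, adjusted p 0.671 to 0.751). Limma called 0 of 12439 features (0%), and an unadjusted p under 0.05 was reached by 829. PCS and Ctr did not overlap, with PCS higher, in 6 of the 6 genes against 13.2% of all features, and 4 of the 6 were higher at an unadjusted p under 0.05 against 2.11% of all features. The median log2 change was 0.66 over the 6 genes, 0.55 over the other 45 named genes and -0.02 over all features. Of all features, 1.38% had a log2 change at or above that of Zbtb37, the highest of the 6 genes, and 3.09% at or above that of Mki67, the lowest. Without POS replicate 2, which is in neither group but enters the shared estimate of spread, the 6 values were the same, none passed (limma, adjusted p 0.229 to 0.289) and 6 of the 6 genes were higher at an unadjusted p under 0.05, against 5.09% of all features (0% after adjustment). PCS replicate 1 was 1.17 (Gatad2a) to 1.48 (Rbfox2) times as high as PCS replicate 2 in every gene, and without PCS replicate 1 the log2 change was 0.37 (Rbfox2) to 0.60 (Zbtb37).

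The comparison of POS with Ctr addressed stored organic potatoes, and here the genes differed more among themselves. Gatad2a averaged 2524 ± 1428 (SD, n = 2) in POS and 1108 ± 280.0 (SD, n = 3) in Ctr, and Rbfox2 averaged 2630.0 ± 1166 and 1180.2 ± 197. Mki67 averaged 978 ± 287 in POS and 574 ± 52.9 in Ctr. The log2 change was 1.09 ± 0.34 (SE) for Gatad2a, 1.09 ± 0.29 for Rbfox2 and 0.95 ± 0.28 for Smarcc1, and it was 0.84 ± 0.25 for Zbtb37, 0.77 ± 0.24 for Atf2 and 0.74 ± 0.21 for Mki67. None passed (limma, adjusted p 0.143 for each gene). Limma called 0 of 12439 features (0%), and an unadjusted p under 0.05 was reached by 3451. POS and Ctr did not overlap, with POS higher, in 6 of the 6 genes against 15.4% of all features, and 6 of the 6 were higher at an unadjusted p under 0.05 against 11.6% of all features. The median log2 change was 0.89 over the 6 genes, 0.80 over the other 45 named genes and 0.04 over all features.

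The size of these values depended on POS replicate 2. Without it the log2 change in POS was 0.48 for Gatad2a, 0.45 for Smarcc1, 0.41 for Atf2, 0.57 for Zbtb37, 0.63 for Rbfox2 and 0.44 for Mki67. POS replicate 1 alone still lay above all 3 controls in 6 of the 6 genes, against 21.3% of all features. No gene passed (limma, adjusted p 0.967 for each, 0% of all features), and 0 of the 6 were higher at an unadjusted p under 0.05, against 1.28% of all features. With POS replicate 1 dropped instead, the log2 changes were 1.05 (Mki67) to 1.70 (Gatad2a) and 6 of the 6 genes passed (limma, adjusted p 0.000975 to 0.0088), in a fit that called 41% of all features. In each of these fits the lone array was assumed to vary like the other groups. POS replicate 2 stood 2.33 times as high as POS replicate 1 for Gatad2a, 1.99 times for Smarcc1 and 1.91 times for Rbfox2, and 1.65 times for Atf2, 1.52 times for Mki67 and 1.45 times for Zbtb37.

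Features near the 6 genes in number, none of them named, also deviated upward on POS replicate 2. The median of all features on that array was itself 0.18 above the controls. Among the 50 features next in number on either side, the median deviation from the mean of all arrays was 0.34 on the log2 scale around Atf2 and 0.52 around Mki67, with the other 4 genes between. On the other 14 arrays the corresponding medians lay between -0.12 and 0.22, the highest being that around Atf2 on PCS replicate 1. The genes themselves deviated more, by 0.87 (Zbtb37 and Mki67) to 1.47 (Gatad2a) on POS replicate 2. A running median of the same kind, but with the named genes kept in, was subtracted from every array. The log2 change in POS was then 0.46 (Mki67) to 0.89 (Gatad2a) and did not pass (limma, adjusted p 0.169 to 0.171). In PCS it was then 0.50 (Atf2, 0.66 without the subtraction) to 0.70 (Zbtb37) and did not pass (limma, adjusted p 0.554 to 0.625). The part of the local deviation in the results was not tested further.

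**Figure D2:**
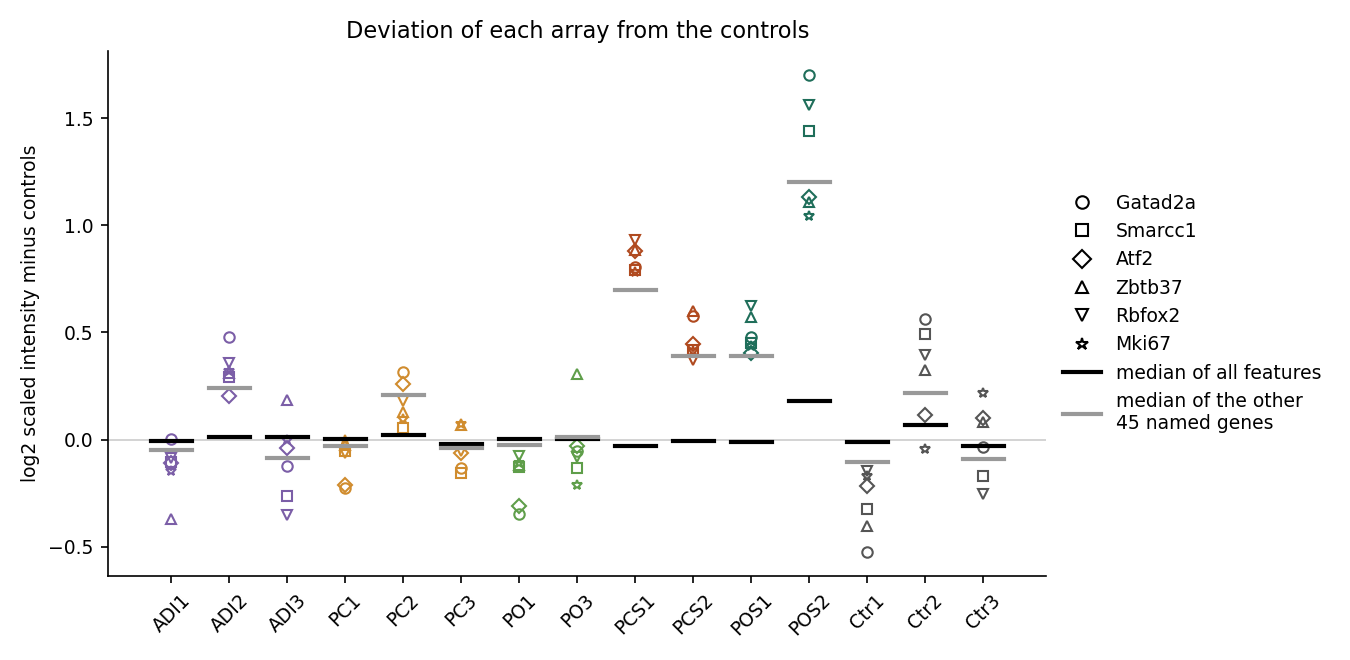
Log2 scaled intensity of the 6 genes (symbols) on each array minus the mean of the controls, with a Ctr array set against the other 2 Ctr arrays, beside the median of all features (black bars) and of the other 45 named genes (grey bars). The 6 genes lie above 0 on all 4 PCS and POS arrays, while the median of all features lies near 0 except on POS replicate 2, where it is 0.18.

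Array by array, the median of the 6 genes over the controls was 0.84 on PCS replicate 1, 0.43 on PCS replicate 2, 0.47 on POS replicate 1 and 1.29 on POS replicate 2. The other 45 named genes had medians of 0.70, 0.39, 0.39 and 1.20 on the same arrays. On the 8 arrays of ADI, PC and PO the median of the 6 genes lay between -0.12 on PO replicate 1 and 0.31 on ADI replicate 2. Ctr replicates 1, 2 and 3 deviated from the other controls by -0.27, 0.36 and 0.02, so the spread among the control mice was of a size with the deviation of PCS replicate 2 and POS replicate 1.

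Stored against unstored potatoes, were compared as the mean of PCS and POS against the mean of PC and PO, with the Ctr arrays entering only the shared estimate of spread. Gatad2a averaged 2141 ± 943 (SD, n = 4) in PCS and POS mice and 1033 ± 191 (SD, n = 5) in PC and PO mice, and Rbfox2 averaged 2252 ± 855 and 1157 ± 94.0. Smarcc1 averaged 1069 ± 385 with storage and 565 ± 34.2 without, and Atf2 averaged 804 ± 198 and 459.6 ± 71.1. Zbtb37 averaged 895 ± 161 with storage and 539 ± 60.9 without, and Mki67 averaged 925 ± 199 and 561.5 ± 49.3. The SD was larger in the stored-potato mice for all 6 genes, but for Gatad2a it was 198 (n = 3) in them without POS replicate 2, close to the 191 in PC and PO mice. For the other genes the SD stayed larger in them without POS replicate 2. It was then 131 for Smarcc1, 138 for Atf2, 102 for Zbtb37, 362 for Rbfox2 and 125 for Mki67. The log2 change was 1.00 ± 0.25 (SE) for Gatad2a, 0.90 ± 0.22 for Rbfox2, 0.87 ± 0.21 for Smarcc1, 0.80 ± 0.18 for Atf2, 0.72 ± 0.15 for Mki67 and 0.72 ± 0.18 for Zbtb37, or 1.64-fold to 2.00-fold. After adjustment over all features none passed (limma, adjusted p 0.103 for Mki67, 0.111 for Atf2 and 0.127 for the other 4 genes). Limma called 0 of 12439 features (0%), and an unadjusted p under 0.05 was reached by 2683. The groups did not overlap, with storage higher, in 6 of the 6 genes against 4.69% of all features and 24 of the other 45 named genes, and 6 of the 6 were higher at an unadjusted p under 0.05 against 11% of all features. The median log2 change was 0.83 over the 6 genes, 0.65 over the other 45 named genes and -0.01 over all features. Of all features, 0.595% had a storage difference at or above that of Gatad2a, 1.03% at or above that of Rbfox2 and 1.28% at or above that of Smarcc1.

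Without POS replicate 2 the storage difference was 0.69 for Gatad2a, 0.67 for Rbfox2, 0.62 for Smarcc1 and Atf2, 0.58 for Zbtb37 and 0.57 for Mki67. These values lie closer together than those with POS replicate 2, and none passed (limma, adjusted p 0.170 to 0.231), in a fit that called 0.00804% of all features. At an unadjusted p under 0.05, 6 of the 6 genes were higher, against 6.52% of all features. Without POS replicate 1 the differences were 0.85 (Zbtb37) to 1.31 (Gatad2a) and 6 of the 6 genes passed (limma, adjusted p 0.000379 to 0.00424), in a fit that called 36.6% of all features.

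**Figure D3:**
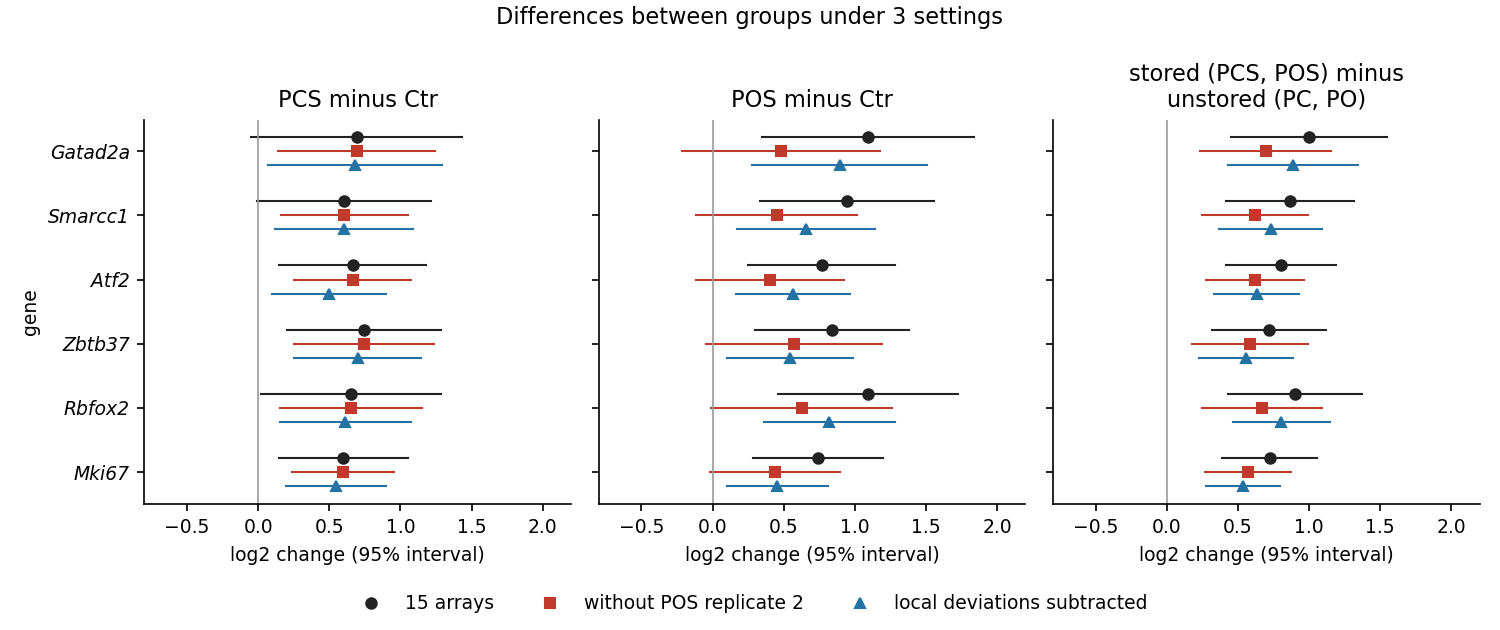
Log2 change with its 95% interval for PCS minus Ctr, POS minus Ctr and stored minus unstored flour, for the 6 genes, under 3 settings: all 15 arrays, without POS replicate 2, and with local deviations subtracted. All points lie above 0, and in POS minus Ctr the points without POS replicate 2 lie at 0.41 to 0.63 with intervals that include 0.

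The level of the whole array entered these differences. On intensities as deposited, with no scaling, the log2 change was 1.56 (Mki67) to 1.71 (Zbtb37) in PCS and 1.51 (Mki67) to 1.86 (Rbfox2) in POS, and all 6 genes passed in both comparisons (limma, adjusted p 0.00165 to 0.00252 in PCS and 0.00185 to 0.00192 in POS). In the same fits 70.4% of all features passed in PCS and 59.6% in POS, and the median of all features was 0.94 above Ctr in PCS and 0.81 above Ctr in POS. With 1 scaling factor per array, scaling took 0.97 off the log2 change of each of the 6 genes in PCS and 0.77 in POS. For storage the changes as deposited were 1.41 (Zbtb37) to 1.69 (Gatad2a), and 6 of the 6 genes passed where 65.6% of all features did.

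**Figure D4:**
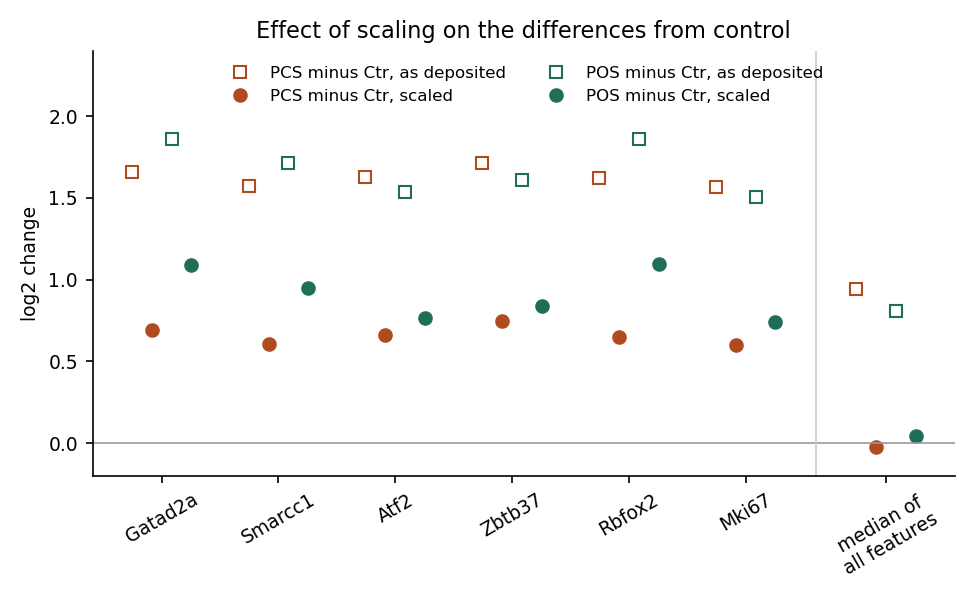
Log2 change of the 6 genes and median of all features in PCS minus Ctr and POS minus Ctr, with intensities as deposited (open squares) and scaled to a common 75th percentile (filled circles). The genes lie between 1.51 and 1.86 as deposited and between 0.60 and 1.09 once scaled, while the median of all features moves to near 0 with scaling.

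Conventional and organic potatoes after storage were compared as PCS against POS. The log2 change was negative, with PCS lower, in 6 of the 6 genes, and ran from -0.44 for Rbfox2 (95% interval -1.14 to 0.25) and -0.40 for Gatad2a to -0.10 for Zbtb37 (95% interval -0.69 to 0.50). None passed (limma, adjusted p 0.501 to 0.878). Limma called 0 of 12439 features (0%), and an unadjusted p under 0.05 was reached by 1676. The median over all features was itself -0.09. PCS and POS overlapped in every gene, so 0 of the 6 lay apart with PCS higher (10.8% of all features) or lower (19.5%). In each gene POS replicate 2 was above both PCS arrays and POS replicate 1 below PCS replicate 1. Without POS replicate 2 the sign turned, to 0.03 (Rbfox2) to 0.26 (Atf2) with PCS higher in 6 of the 6 genes, and none passed (limma, adjusted p 1.00). A test of whether storage acted differently in conventional and organic potatoes, added after the data had been seen, gave log2 differences of -0.59 (Gatad2a) to -0.06 (Zbtb37), and none passed (limma, adjusted p 0.705 to 0.971). Limma called 0 of 12439 features (0%) in that test, and an unadjusted p under 0.05 was reached by 509. Without POS replicate 2 the log2 differences were -0.07 (Rbfox2) to 0.21 (Zbtb37).

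The pesticide mixture and the unstored potatoes gave small differences from water in these genes. In ADI the log2 change ran from -0.03 for Rbfox2 to 0.12 for Gatad2a, with a median of 0.03 over the 6 genes and -0.00 over all features. In PC it ran from -0.05 for Smarcc1 to 0.06 for Zbtb37, and in PO from -0.20 for Gatad2a to 0.09 for Zbtb37. The median over the 6 genes was 0.01 in PC and -0.15 in PO, where 5 of the 6 were lower. PO had no array of replicate 2, while Ctr replicate 2 was 0.36 above the other controls in the median of the 6 genes. Without Ctr replicate 2 the log2 change in PO changed sign in 2 of the 6 genes, so diet and replicate number cannot be told apart there. In PO the median was 0.03 over the other 45 named genes and -0.003 over all features. None passed (limma, adjusted p 1.00 in all 3 comparisons). Limma called 0 of 12439 features (0%) in each, and an unadjusted p under 0.05 was reached by 196 in ADI, 170 in PC and 285 in PO. Of the 6 genes, 0 were higher at that limit in ADI, PC or PO, against 0.611%, 0.675% and 0.756% of all features. All 6 genes overlapped between ADI and Ctr, where 2.32% of all features lay apart with ADI higher and 2.64% with ADI lower. They also all overlapped between PC and Ctr (2.54% higher, 3.7% lower) and between PO and Ctr (8.95% higher, 10.5% lower). The widest 95% intervals, those of Gatad2a, reached 0.78 in ADI, 0.65 in PC and 0.54 in PO on the log2 scale, and down to -0.54, -0.68 and -0.94. For Gatad2a the interval in ADI thus takes in the log2 change of 0.69 measured in PCS, while for the other 5 genes the intervals in ADI end below their values in PCS. The 95% intervals of those PCS values begin at -0.005 (Smarcc1) to 0.20 (Zbtb37), and ADI was not compared with PCS directly. POS replicate 2, in none of these groups, enters the shared estimate of spread behind these intervals and p-values. For Gatad2a in PCS against Ctr the SE was 0.34 with that array and 0.25 without it. The reach of the ADI interval of Gatad2a thus depends on that array.

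Within ADI, PC and Ctr the replicate numbers went with the level of these genes. Replicate 2 was the highest of the 3 arrays in all 3 groups for Gatad2a, Smarcc1, Atf2, Zbtb37 and Rbfox2, 5 of the 6 genes, against 14% of all features and 19 of the other 45 named genes. For Mki67 replicate 2 was the highest in ADI and PC but not in Ctr. For Gatad2a, Smarcc1, Atf2 and Rbfox2 the 3 arrays numbered 2 lay above all 6 arrays numbered 1 or 3, against 9.13% of all features. Over all features the deviations of same-numbered arrays from their group means correlated at r = 0.21 to 0.33 between ADI and Ctr, 0.15 to 0.30 between PC and Ctr and 0.16 to 0.32 between ADI and PC. The labels do not say what the numbers stand for beyond the individual mouse. With the replicate number as a block, no gene passed in ADI, PC, PO, PCS or POS against Ctr, nor for storage. The storage difference was then 0.87 for Gatad2a, 0.77 for Atf2, 0.76 for Rbfox2, 0.73 for Smarcc1 and Zbtb37 and 0.70 for Mki67. Zbtb37 alone was not smaller than without the block. Among the arrays used, PCS, POS and PC had a replicate 2 and PO had none. The part of replicate number in the storage difference was not tested further.

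**Figure D5:**
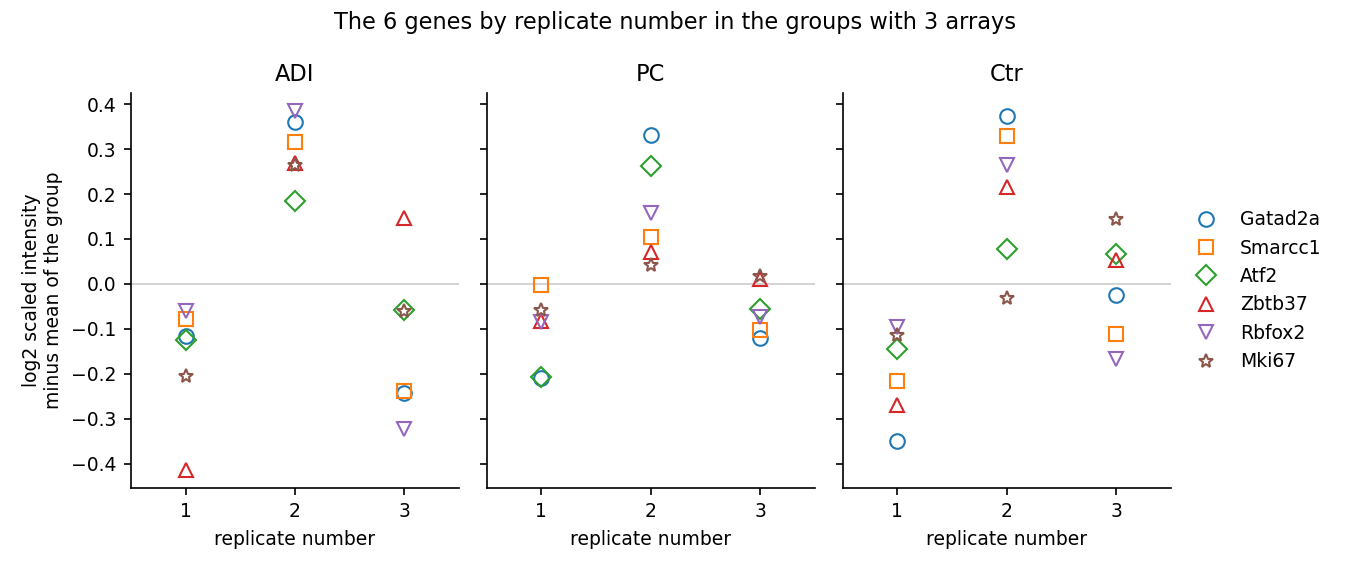
Log2 scaled intensity of each gene minus its group mean, by replicate number, in the 3 groups with 3 arrays. Points of replicate 2 lie above 0 for the 6 genes in ADI and PC and for 5 of the 6 in Ctr, where Mki67 is the exception.

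The 6 genes followed similar patterns over the 15 arrays, all being highest on those of PCS and POS. They come from a table made from these mice. Of the other 45 named genes, 42 were higher with storage too, so such values were not particular to these 6. Over 15 arrays the 15 pairs among the 6 genes had Pearson r from 0.87 (Zbtb37 and Rbfox2) to 0.99 (Smarcc1 and Rbfox2). Over the 14 arrays without POS replicate 2, r ran from 0.80 to 0.97 for the same pairs. Over the 11 arrays without PCS and POS, r ran from 0.36 (Zbtb37 and Rbfox2) to 0.93 (Smarcc1 and Rbfox2). On each array the genes share 1 scaling factor and partly the replicate-number pattern, and the r values describe the arrays with no test. Smarcc1 and Rbfox2 thus stayed close in all 3 sets of arrays, whereas over the 11 arrays the pairs of Zbtb37 or Mki67 with other members lay between 0.36 and 0.64, and those of Atf2 with Smarcc1 and Rbfox2 at 0.59.

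Among all 51 named genes, the one most like Gatad2a over 15 arrays was Cpne4, a calcium-dependent phospholipid-binding protein (r = 0.99, and 0.95 over the 11 arrays without PCS and POS), followed by Smarcc1. Smarcc1 and Rbfox2 were each other's nearest gene. The next most like Smarcc1 was Cfi, the complement factor I protease (r = 0.97 and 0.82), and the next most like Rbfox2 was Vgf, a neuropeptide precursor (r = 0.98 and 0.86). Atf2 and Mki67 both had the intermediate filament gene Synm as their nearest gene (r = 0.97 and 0.86 for Atf2, 0.96 and 0.68 for Mki67). The second for Atf2 was the myosin light chain kinase Mylk3 (r = 0.97 and 0.75), and for Mki67 it was Atf2 (r = 0.95 and 0.64). Zbtb37 was most like Fank1, a fibronectin and ankyrin repeat gene (r = 0.94 and 0.88), and then Olfr1183, an olfactory receptor (r = 0.94 and 0.78).

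Partners of these genes could be placed only where the files pair a name with a feature. Of 15 NuRD genes listed 1 had a named feature, Gatad2a itself, and likewise 1 of 26 BAF genes, 1 of 11 ATF/CREB genes and partners, 1 of 9 splicing regulators and 1 of 10 proliferation genes. The other subunits and partners were not analysed here, so no statement is made about the complexes or about other cell cycle genes beside Mki67.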

How the data were processed

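The authors deposited intensity values of one-colour Agilent arrays (Cy3) as a single table. The submitters' processing notes name Agilent Feature Extraction, and its version and settings are not stated in what was used here. The values were read as linear and unscaled between arrays, since some lie below 0, the highest is 65535 and the percentiles differ. The authors' deposited gene table joins names to intensities by feature number, and its fold columns were not used. Accessions of 5 genes matched the RefSeq table of GRCm38.p6, and Zbtb37 matched by symbol.

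Intensities of 15 of the 18 arrays were brought to the same 75th percentile, raised to 16 where lower (8 to 40 features on 14 arrays, 145 on POS replicate 2, none of the 6 genes) and turned into log2. All features entered 1 fit of group means (lmFit and eBayes of limma 3.58.1, R 4.3.3), with Benjamini-Hochberg adjustment over all features at 0.05. The fit was tried on simulated data with independent noise. Those data held no outlying array and no replicate-number pattern, so they do not show how the fit behaves with either. Few arrays per group limit the precision: the median half-width of a feature's 95% interval was 0.52 to 0.58 on the log2 scale against Ctr. The files give no detection flags. Same-numbered ADI, PC and Ctr arrays had residuals that correlated above 0.1 in every pair, whereas PCS and Ctr had r from -0.13 to 0.04.

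The 6 genes, the partner lists and the alternatives were chosen with earlier results of these data known. The rule named all 6 genes in every comparison and, for likeness, the 2 named genes with the highest Pearson r over the 15 arrays. Alternatives were other scaling (none, median, quantile), floors of 1 and 64, a filter on dim features, all 18 arrays, the compared groups alone, array weights, the replicate block, subtraction of local deviations and leaving out each array.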

Additional observations from a re-analysis of the deposited data

Results flagged for a closer look

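The column of PO replicate 2, which entered no comparison, carried intensities above all 3 Ctr arrays in each of the 6 genes, before any scaling. The deposited intensity was 2141.5 for Gatad2a, where the highest control had 1042, and 1157 for Smarcc1, where it had 556. It was 987.5 for Atf2, 1115 for Zbtb37, 2464.5 for Rbfox2 and 1089.5 for Mki67, against highest controls of 469, 496, 1041 and 592. In each gene, as in all 12439 features, the value is the average of PCS replicate 1 and PO replicate 3, so the column repeats a PCS array in part.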

How the results depend on the processing

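The log2 changes of the 6 genes in PCS, in POS and with storage kept their direction in 26 of the 27 alternatives, and the exception was the use of all 18 arrays. That setting takes in PO replicate 2, which repeats a PCS array in part. It also takes in PCS replicate 3 and POS replicate 3, which ran against the columns used (r from -0.17 to -0.14). There Smarcc1, Atf2, Zbtb37 and Mki67 turned to -0.69, -0.75, -0.26 and -0.32 in PCS, to -0.031, -0.20, -0.039 and -0.27 in POS and to -0.38, -0.52, -0.33 and -0.36 with storage. All 6 genes passed in PCS, POS and storage with no scaling, and in POS and storage without POS replicate 1, and in no other alternative. Adjusted p over the alternatives ran from 0.00165 to 1.00 in PCS, from 0.000975 to 0.982 in POS and from 0.000379 to 0.761 with storage. Of the smaller differences, 19 of 162 values changed sign in ADI, 20 in PC, 12 in PO and 19 in PCS against POS.

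The number of features called, 0 in each comparison, was 8756 for PCS, 7412 for POS and 8165 for storage with no scaling. With a floor of 64 it was 2, 5 and 4 for the same comparisons, and with quantile normalization 4 for POS and 2 for storage. It was 1 for POS with a common median and 1 with dim features left out, 1 for PCS within the groups compared, and 5 for PCS and 2 for PC with array weights. With the replicate block it was 2 for PCS, and with the same replicate block but no POS replicate 2 it was 65 for PCS and 68 for storage; the block changed no call of the 6 genes. Leaving out 1 array gave 0 to 1 for PC, 0 to 2 for PO, 0 to 2 for PCS, 0 to 5102 for POS, 0 to 4547 for storage, 0 to 3954 for PCS against POS and 0 to 2929 for the difference of storage between cultivations, each of the last 4 highest without POS replicate 1. The causes were not tested.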

Other observations

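PCS replicate 3 and POS replicate 3, whose columns entered no comparison, correlated with each other at r = 0.97 over features. They ran against the 15 columns used (r from -0.17 to -0.14), and whether their rows follow the same feature order was not tested. The values in the rows of the 6 genes were mostly far below those of the controls and may not belong to these genes. Atf2 had 15 in PCS replicate 3 and 53 in POS replicate 3, with 333 to 469 in Ctr mice. Smarcc1 had 23 and 73 in these columns, with 396 to 556 in Ctr mice, and Zbtb37 had 40 and 71, with 326 to 496 in Ctr mice. Mki67 had 48 and 56, with 407 to 592 in Ctr mice, and Gatad2a had 171 and 238, with 655 to 1042 in Ctr mice. The row of Rbfox2 had 814 and 858, with 842 to 1041 in Ctr mice, so of the 6 rows it alone reached the range of the controls, in POS replicate 3.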
